A study of Drosophila melanogaster with 6 samples.

Results

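Chemosensory genes of 4 families were followed in RNA from the larval body wall of Drosophila melanogaster: the odorant-binding proteins (Obp), the ionotropic receptors (Ir), the gustatory receptors (Gr) and the odorant receptors (Or). Members were taken by symbol, as every gene whose name starts with Obp, Ir, Gr or Or followed by a digit, a rule that uses no measured value. This gave 126 of the 11621 genes in the count table, namely 35 Obp, 33 Ir, 32 Gr and 26 Or genes. Protein-coding genes with such names number 51, 60, 60 and 59 in the Ensembl annotation, and those outside the table were not analysed here.

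The study asked how tumours in the larval eye disc affect distant tissue, and sequenced cuticles, meaning the body wall with epidermis and skeletal muscle left after dissection. Tumour-bearing larvae (3 samples, 10 days after egg laying) carried y,w,ey-flp, together with act5C>y+>GFP over UAS-RasV12 and with FRT82B,tub-gal80 over FRT82B,scrib1. In these larvae ey-flp, a recombinase gene under an eyeless enhancer, makes clones that lack scrib function and express oncogenic RasV12 in the eye disc, not in the body wall. Control larvae (3 samples, 7 days after egg laying) were w1118. The groups thus differ in age and genetic background as well as in the tumour, and these cannot be told apart in any comparison given here. The column headers give each sample its own lane, and the labels state 25 degrees for control larvae, while the study's husbandry text puts RasV12, scrib1 larvae among those moved between temperatures. Each sample pooled many cuticles, and nothing in the sources says whether the samples of a group came from separate cultures, so that the p-values rest on a spread between samples that may be technical.

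Odorant-binding proteins are small secreted proteins that carry hydrophobic molecules through the fluid around sensory dendrites, and several are also made by cells outside sense organs. Gustatory and odorant receptors are ligand-gated channels of sensory neurons, and odorant receptors work together with the co-receptor Orco. Ionotropic receptors descend from glutamate receptors and pair a tuned subunit with a broadly expressed co-receptor such as Ir25a, to sense acids, amines, salt, temperature or humidity. In the larva most of these neurons sit in head organs, which the dissection was described as removing with the anterior end, while single taste and touch organs lie along the body wall.

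Depth was 62617114 to 77801818 counts per tumour-bearing sample and 69920428 to 84149121 per control sample. The 20 genes with the most counts held 6.66% to 7.55% of all counts in tumour-bearing samples and 25.0% to 33.1% in control samples. Values below are normalized counts, which are counts divided by the library size after TMM scaling (a correction for a few genes taking a large share of the counts) and brought back to the mean library, unless raw counts are named. With TMM scaling the median gene changed by 0.01 on the log2 scale between the groups. Without it, on total counts, the median gene was 0.94 higher in tumour-bearing samples. Differences were tested over all genes with edgeR's quasi-likelihood test, with a Benjamini-Hochberg adjusted p below 0.05 as the threshold, and a log2 fold change is tumour-bearing over control with its standard error (SE). As a check of the labelled tissue, 13 muscle markers held 2.26% to 3.19% of all counts in tumour-bearing samples and 4.05% to 11.6% in control samples. At the test's threshold 10 of 13 muscle and 12 of 17 epidermal markers were lower in tumour-bearing samples and 10 of 12 haemocyte (blood cell) markers were higher, and genes of fat body, salivary gland and neurons also had counts in both groups. Of 9 tested markers of the eye-antennal disc, where the tumour arises, 2 were higher and 1 lower. The 12 such markers in the table summed to 1764, 2557 and 3693 normalized counts in tumour-bearing samples. In control samples the sums were 2785, 3142 and 3283. In bulk samples fewer cells of a type and less RNA per cell cannot be told apart, and the part of tissue composition in the chemosensory values was not tested.

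The libraries numbered 3 stood apart from the others of their group. Counting genes with 30 or more raw counts in 1 library and over 10 times the normalized count of every other library, a rule chosen after the data were seen, 33 genes (0.284%) met it in tumour-bearing replicate 3, against 1 gene (0.00861% of the table) in each of the other tumour-bearing libraries. In control samples 66 genes (0.568%) met it in replicate 3, none of them a member, against 0 (0.00%) in replicate 1 and 1 (0.00861%) in replicate 2, among them ple (tyrosine hydroxylase, the enzyme that starts dopamine and tanning synthesis) with 936857 raw counts against 276 and 530. Results that rest on either library are given with and without it.

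Most chemosensory receptors were near the limit of detection. By the threshold of at least 10 raw counts in 3 or more samples, 62 of the 126 members were detected (49.2%), against 87.0% of all 11621 genes. The families differed: 19 of 35 Obp genes, 20 of 33 Ir genes, 15 of 32 Gr genes and 8 of 26 Or genes were detected. Among the Obp genes these were Obp18a, Obp44a, Obp50d, Obp50e, Obp56a, Obp56d, Obp56e, Obp57b, Obp57c, Obp57d, Obp57e, Obp73a, Obp83cd, Obp83ef, Obp83g, Obp84a, Obp99a, Obp99b and Obp99c. The ionotropic receptors detected were Ir7f, Ir7g, Ir10a, Ir21a, Ir25a, Ir40a, Ir41a, Ir48b, Ir51b, Ir56b, Ir56d, Ir60b, Ir62a, Ir68a, Ir75d, Ir76a, Ir76b, Ir87a, Ir93a and Ir94c. Among gustatory receptors Gr5a, Gr8a, Gr28b, Gr32a, Gr43a, Gr59f, Gr61a, Gr63a, Gr64a, Gr64b, Gr64c, Gr64f, Gr66a, Gr77a and Gr94a were detected, and among odorant receptors Or1a, Or2a, Or22b, Or43b, Or45b, Or71a, Or83a and Or85f.

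All 11621 genes in the table had at least 1 count somewhere, so that the 126 members did too is no result about them. For the 64 members below the threshold, the highest raw count in any sample had a median of 9. Of these, 24 were never above 5 counts and 32 reached 10 or more in at least 1 sample. Over all members the median of the mean normalized count was 11.3, against 922 for all genes. By family this median was 38.2 for Obp, 12.6 for Ir, 10.8 for Gr and 6.15 for Or genes. Nothing can be said at this depth about a difference between groups for the members that stayed at a few counts.

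Of the 126 members, 60 passed the filter on low counts and were tested (19 Obp, 19 Ir, 14 Gr and 8 Or). Ir60b and Gr64f were detected but fell below that filter. In tumour-bearing samples 13 members were higher and 9 lower at the threshold, while 38 did not pass. The 22 members called are 36.7% of those tested, against 46.8% of all 10074 genes tested (23.8% higher and 23% lower), a share below that of all genes. By family the counts of higher and lower members were 5 and 4 for Obp, 4 and 1 for Ir, 1 and 3 for Gr, and 3 and 1 for Or. The median log2 fold change over the tested members was 0.46, against 0.01 over all genes, with 0.41 for Obp, 0.61 for Ir, 0.10 for Gr and 1.33 for Or. Members near the filter could pass it through 1 group alone, as Ir56d did with 0 counts in every tumour-bearing sample. Such members enter the test because they are high in that group, so these medians describe the tested members and show no shift of a family. Normalized counts of the groups did not overlap for 19 members that were higher and 11 that were lower, against 31.9% and 29.7% of all genes tested. All 22 called members were among these, which is no separate support, since overlap and test rest on the same counts. All 22 kept their direction under each scaling tried. The counts depend on the scaling, with 30 members higher and 8 lower on total counts.

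**Figure D1:**
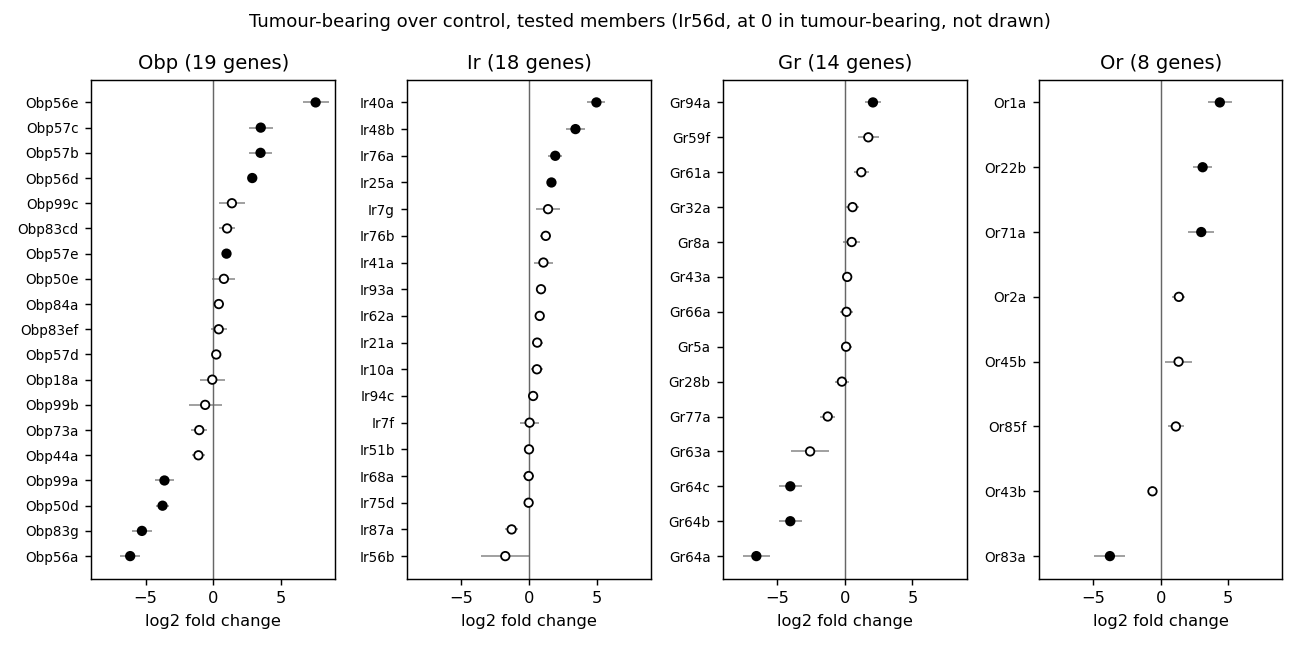
Log2 fold change of each tested member, tumour-bearing over control, in 1 panel per family, with bars of 1 SE and filled points for members past the edgeR threshold of 0.05 (n = 3 samples per group). The drawn values run from 7.58 for Obp56e to -6.55 for Gr64a, and Ir56d is not drawn because it had 0 counts in every tumour-bearing sample.

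The Obp family was the only one of the 4 with abundant members. Obp genes together took 0.154%, 0.150% and 0.214% of all counts in tumour-bearing replicates 1 to 3, against 0.0499%, 0.0406% and 0.0533% in control replicates 1 to 3, so the groups did not overlap on this scale. Ionotropic receptors took 0.00308%, 0.00305% and 0.00355% in tumour-bearing samples, against 0.00133%, 0.00128% and 0.00153% in control samples. Gustatory receptors took 0.000940% to 0.00124% in tumour-bearing samples and 0.000433% to 0.00124% in control samples, and odorant receptors 0.000884% to 0.00123% and 0.000436% to 0.00186%. For Gr and Or genes the ranges of the groups overlapped, with control replicate 3 the highest control sample in both families. These shares are of total counts, on which the median gene was itself higher in tumour-bearing samples. With the 20 most abundant genes left out of the total, the Obp share averaged 0.186% ± 0.0395 in tumour-bearing samples and 0.0682% ± 0.00664 in control samples, and the Ir share 0.00347% ± 0.000323 and 0.00197% ± 7.21e-05 (SD, n = 3 each).

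Obp56d and Obp57d made up most of the Obp share, in different proportions in each group. Obp56d, an odorant-binding protein gene of chromosome 2R, held 48.5%, 53.4% and 52.1% of the Obp counts in tumour-bearing samples, against 16.6%, 12.3% and 9.80% in control samples. Obp57d held 46.7%, 44.6% and 41.2% in tumour-bearing samples, against 70.6%, 67.6% and 72.9% in control samples. The other 33 Obp genes held 4.77%, 2.0% and 6.68% in tumour-bearing samples and 12.9%, 20.1% and 17.3% in control samples. Obp56d was thus the leading Obp gene by count in each tumour-bearing sample and far below Obp57d in each control sample, while the other 33 genes made up a smaller part of the Obp counts in each tumour-bearing sample than in any control sample. As a percent of all counts, however, the groups overlapped for these 33 genes. They took 0.00735%, 0.00300% and 0.0143% in tumour-bearing samples, against 0.00641%, 0.00816% and 0.00925% in control samples.

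**Figure D2:**
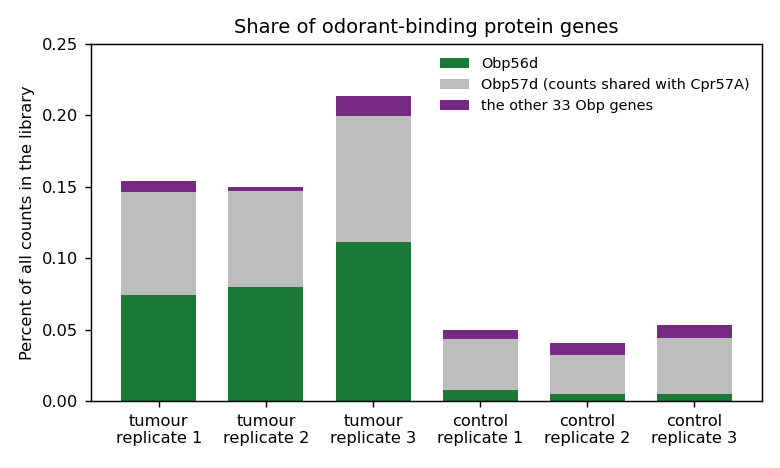
Counts of odorant-binding protein genes as a percent of all counts in each library, stacked for Obp56d, Obp57d (which shares its counts with Cpr57A) and the other 33 Obp genes. The bars reach 0.154%, 0.150% and 0.214% in tumour-bearing replicates, against 0.0499%, 0.0406% and 0.0533% in control replicates, and most of the difference is in the Obp56d and Obp57d segments.

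The Obp57d row does not separate this gene from a cuticle gene. Its raw counts were the same as those of Cpr57A, a cuticle protein gene, in all 6 samples, and its annotated exons (1488 bases, 2R:20548368-20550117, minus strand, BDGP6) lie wholly within an exon of Cpr57A on the same strand. The row had 39438, 38451 and 46604 normalized counts in tumour-bearing samples, against 37868, 33203 and 35251 in control samples. The groups did not overlap, but the difference was small and did not pass the test (log2 fold change 0.23, SE 0.15, edgeR adjusted p = 0.241). On total counts the same row was 1.16 higher with an adjusted p of 0.00249, which is close to the shift of the median gene on that scale. Leaving Obp57d out, Obp genes took 0.0821%, 0.0831% and 0.126% of all counts in tumour-bearing samples, against 0.0147%, 0.0131% and 0.0145% in control samples.

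Among Obp genes that were higher, Obp56d carried the most counts. It had 40914, 46099 and 58842 normalized counts in tumour-bearing samples, against 8892, 6033 and 4744 in control samples. Each tumour-bearing sample was thus above every control sample, and Obp56d was 2.89 higher on the log2 scale (SE 0.30, edgeR adjusted p = 0.00129). Scaled by exon length and library total (an RPKM-type level), Obp56d averaged 962 ± 214 in tumour-bearing samples and 66.8 ± 19.9 in control samples (SD, n = 3 each). On the same scale Obp56e, the next highest called member in tumour-bearing samples, averaged 51.7 ± 31.4 in tumour-bearing samples and 0.138 ± 0.120 in control samples. These levels serve to compare genes. They rest on total counts, on which the median gene was 0.94 higher (log2) in tumour-bearing samples, so increases look larger than with TMM scaling.

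Obp56e had the greatest increase of all tested members. Its raw counts were 1580, 976 and 3177 in tumour-bearing samples, against 8, 8 and 0 in control samples, hardly detected in the control larvae (7.58 on the log2 scale, SE 0.96, edgeR adjusted p = 0.00241). Without tumour-bearing replicate 3 the value was 6.99, and without control replicate 3, where it had 0 counts, 6.87. An antisense RNA gene, asRNA:CR44509, covers 84.4% of the Obp56e exon bases on the other strand, and the library kit did not mark strand, so reads of the pair cannot be told apart.

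Obp56a, in the same stretch of chromosome 2R, moved the opposite way. Raw counts of Obp56a were 48, 14 and 75 in tumour-bearing samples, against 1141, 891 and 3959 in control samples. It was lower in each tumour-bearing sample (-6.14 on the log2 scale, SE 0.75, edgeR adjusted p = 0.00221), and the value was -5.50 without control replicate 3. The 4 neighbours Obp56a (2R:19697723-19698508), Obp56b, Obp56d (2R:19702924-19703915) and Obp56e (2R:19712345-19712932) form a cluster in which no gap between genes exceeds 20000 bases. Within it Obp56d and Obp56e were higher, Obp56a was lower, and Obp56b had counts above 3 only in tumour-bearing replicate 3.

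The Obp57 genes fell into groups by position. Obp57b and Obp57c, next to each other at 2R:20503584-20505136, lie apart from the pair Obp57d and Obp57e, which are made in taste organs and have been tied to host plant preference in Drosophila sechellia. Obp57c had raw counts of 40, 42 and 90 in tumour-bearing samples, against 0, 2 and 7 in control samples (3.52 on the log2 scale, SE 0.88, edgeR adjusted p = 0.0199). Obp57b had 36, 43 and 73 in tumour-bearing samples, against 0, 2 and 6 in control samples (3.50, SE 0.84, edgeR adjusted p = 0.0169). Both were at or near 0 in controls and moved in step. Obp57e showed a smaller difference, with 126, 186 and 181 normalized counts in tumour-bearing samples and 70.7, 85 and 92.8 in control samples (0.99, SE 0.27, edgeR adjusted p = 0.0272). These 3 calls were not firm: each was lost without tumour-bearing replicate 2, without tumour-bearing replicate 3 and without control replicate 2, and that of Obp57e also without control replicate 1, with adjusted p up to 0.0559 for Obp57b, 0.0627 for Obp57c and 0.0983 for Obp57e. Without control replicate 3 the values of Obp57b and Obp57c were 4.57 and 4.74.

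Besides Obp56a, the Obp genes lower in tumour-bearing samples were Obp83g, Obp50d and Obp99a. Obp83g had 122, 74.4 and 108 normalized counts in tumour-bearing samples, against 3949, 6772 and 1065 in control samples (-5.27 on the log2 scale, SE 0.75, edgeR adjusted p = 0.00345). Its level was close among tumour-bearing samples and spread more widely among control samples, and the value was -4.64 without control replicate 2. Its cluster partners Obp83cd and Obp83ef did not pass, at 1.03 (SE 0.57) and 0.41 (SE 0.58), and they overlap each other on opposite strands over 92 bases.

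Obp50d belongs to the plus-C group, whose members carry cysteines beyond the usual set. It had 28.9, 15.6 and 18.6 normalized counts in tumour-bearing samples, against 292, 155 and 403 in control samples (-3.74, SE 0.48, edgeR adjusted p = 0.00233). Obp50e, its neighbour within the same cluster, had 21.1, 43.2 and 62 in tumour-bearing samples and 21.5, 3.21 and 46.4 in control samples, and did not pass (0.79, SE 0.86). Obp50b and Obp50c could not be told apart, since their annotated exons and their counts were the same.

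The minus-C group, which lacks a pair of the conserved cysteines, had 4 tested members. Of these 1 was lower and 0 were higher, against 23% and 23.8% of all genes tested. The member that passed was Obp99a, with 10.6, 4.59 and 10.9 normalized counts in tumour-bearing samples, against 33.8, 119 and 169 in control samples (-3.60, SE 0.72, edgeR adjusted p = 0.00945). Obp44a had 66.2, 33.1 and 85.3 in tumour-bearing samples and 205, 94.6 and 94.9 in control samples, with no overlap but no call (-1.09, SE 0.50, edgeR adjusted p = 0.120). The remaining members, Obp99b and Obp99c, spread widely within the groups, whose ranges overlapped.

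Obp99b had 1809, 103 and 166 normalized counts in tumour-bearing samples, against 311, 839.9 and 1980 in control samples, and the difference did not pass (-0.59, SE 1.22, edgeR adjusted p = 0.711). Tumour-bearing replicate 1 and control replicate 3 were the high libraries, and the value was -2.96 without tumour-bearing replicate 1 and 0.25 without control replicate 3. The 9 fat body markers in the table, all above 0 in every sample, summed to 17160, 3591 and 4115 normalized counts in tumour-bearing samples, against 4501, 10300 and 19410 in control samples, with 1 of the 9 lower and 0 higher at the threshold. Their sum was high in the same libraries as Obp99b, and its part in the Obp99b values was not tested. Obp99c had 377, 64.3 and 36.4 in tumour-bearing samples and 27.7, 62.5 and 91.7 in control samples (1.39, SE 0.97, edgeR adjusted p = 0.279), and without tumour-bearing replicate 1 its value was -0.28.

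**Figure D3:**
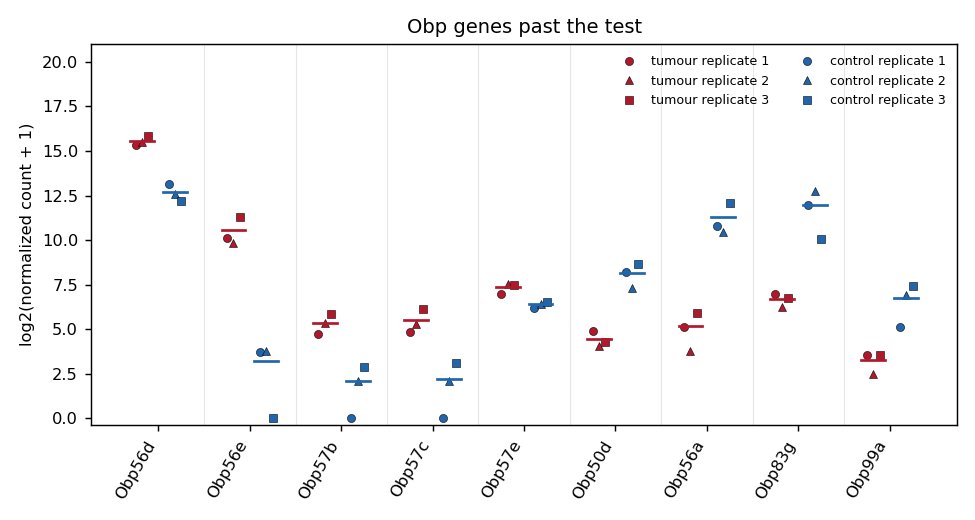
Normalized counts on a log2(value + 1) axis for the 9 Obp genes past the test, with 1 symbol per library, tumour-bearing samples left of control samples, and lines at the group means. Obp56d, Obp56e, Obp57b, Obp57c and Obp57e lay higher in all 3 tumour-bearing samples, and Obp50d, Obp56a, Obp83g and Obp99a lay lower in all 3.

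A further set of Obp genes was seen almost only in tumour-bearing replicate 3. Of the 33 genes that met the rule for that library, which are 0.284% of the table, 7 were Obp genes, or 20% of the 35. None of the 7 was tested, since each was below the filter in the other libraries, and the set is a description of 1 library, not a difference between groups. Obp28a, an abundant odorant-binding protein of the adult antenna, had raw counts of 6, 4 and 2203 in tumour-bearing samples, against 22, 8 and 0 in control samples. Obp56h had 0, 0 and 1568 in tumour-bearing samples and 0 in each control sample. Obp49a, which binds bitter compounds and dampens the response of sugar receptors, had 10, 6 and 766 in tumour-bearing samples and 0, 4 and 8 in control samples. The other 4 were lower in count, with 368 for Obp47a, 138 for Obp56b, 60 for Obp46a and 32 for Obp58b in tumour-bearing replicate 3, and at most 3 in any other library.

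Some genes known from other tissues were also high in that library alone. Of the 9 salivary gland markers these were the new glue genes ng1, ng2 and ng3, which had 1434, 2043 and 3203 raw counts in tumour-bearing replicate 3, and at most 65, 94 and 115 in any other library. The 9 salivary gland markers in the table summed to 268, 223 and 5244 normalized counts in tumour-bearing samples, against 926, 273 and 592 in control samples, a sum that the ng genes carry in tumour-bearing replicate 3. The other 6 markers, the glue genes Sgs1, Sgs3, Sgs4, Sgs5, Sgs7 and Sgs8, did not follow, with 26, 2, 53, 0, 2 and 0 raw counts in tumour-bearing replicate 3. At the threshold 3 of the 8 tested salivary markers were higher (ng1, ng2 and ng3) and 3 lower (Sgs3, Sgs5 and Sgs7). Values of the ng genes without tumour-bearing replicate 3 are not given here. The rhodopsin gene Rh6 of photoreceptors had 7, 3 and 553 raw counts in tumour-bearing samples, against 9, 1 and 5 in control samples. The homeotic gene pb, which patterns mouthparts, had 2, 2 and 155 in tumour-bearing samples and 1, 0 and 1 in control samples. Rh6 and pb were on none of the marker lists and were picked from the 33 genes that met the rule for that library. The part of other tissues in the 7 Obp values was not tested. Among the called Obp genes, Obp56d and Obp56e were highest in the same library but were also raised in the other tumour-bearing libraries, and both calls held without it. Obp57b and Obp57c were also highest there, and without that library they missed the threshold (edgeR adjusted p = 0.0518 and 0.0591).

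**Figure D4:**
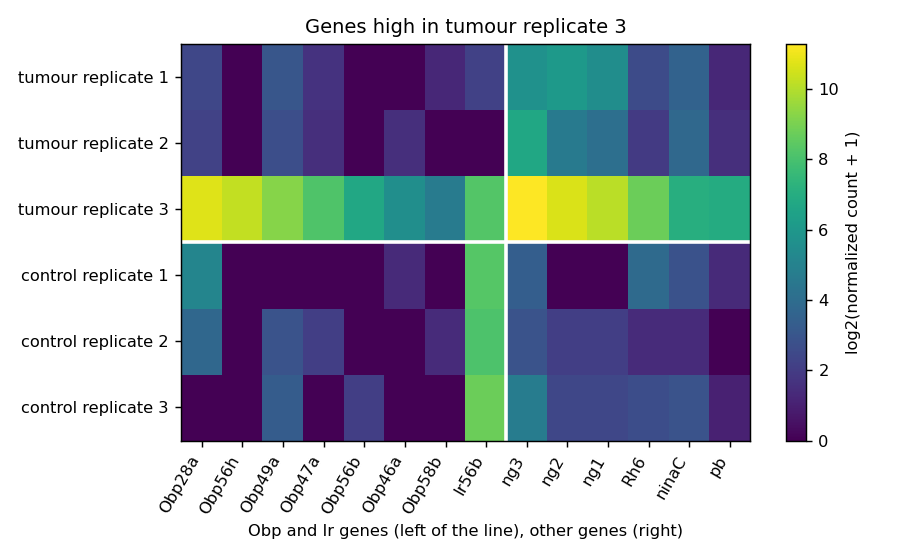
Normalized counts as log2(value + 1) by colour, in each of the 6 libraries (rows), for 7 Obp genes and Ir56b (left of the white line) and 6 other genes (right of it) that were high in tumour-bearing replicate 3. Each of the 7 Obp genes is highest in that row, with raw counts there from 32 to 2203, whereas Ir56b is equally bright in the 3 control rows.

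All co-receptors of the Ir family in the table were above the detection threshold. Ir25a, the most widely used co-receptor, was higher in tumour-bearing samples, with 164, 327 and 292 normalized counts there against 86.1, 67.3 and 93.9 in control samples (1.66 on the log2 scale, SE 0.34, edgeR adjusted p = 0.00998), and kept its call under every alternative. Ir76b, a co-receptor of taste and amine detection, had 51.4, 35.8 and 77.5 in tumour-bearing samples and 29.2, 22.4 and 18.3 in control samples, and narrowly missed the threshold (1.24, SE 0.42, edgeR adjusted p = 0.0510). Ir93a, which works with Ir25a in humidity and temperature sensing, had 35.2, 49.6 and 52 in tumour-bearing samples and 23.1, 22.4 and 28 in control samples (0.89, SE 0.32, edgeR adjusted p = 0.0644). In all 3 co-receptors the groups did not overlap, and 1 of the 3 passed the test.

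Among the tuned receptors of the antennal type, 6 were tested, of which 2 were higher and 0 lower, against 23.8% and 23% of all genes tested. Ir40a, known from dry-sensing neurons of the adult, had raw counts of 208, 75 and 82 in tumour-bearing samples, against 3, 2 and 1 in control samples (4.98 on the log2 scale, SE 0.67, edgeR adjusted p = 0.00256). It was the most strongly changed receptor among those that were higher. Ir76a, which with Ir76b detects amines, had 33.1, 38.6 and 57.4 normalized counts in tumour-bearing samples, against 4.61, 14.4 and 14 in control samples (1.94, SE 0.52, edgeR adjusted p = 0.0245). That call was lost without tumour-bearing replicate 2 or 3 or control replicate 1 (adjusted p up to 0.0766), and CG14102, which overlaps 14.1% of the Ir76a exon on the other strand, had 195, 146 and 196 raw counts in tumour-bearing samples and 10, 33 and 82 in control samples. The temperature receptor Ir21a, the humidity receptor Ir68a and the polyamine receptor Ir41a did not pass, at 0.61 (SE 0.39), -0.02 (SE 0.41) and 1.06 (SE 0.71). The antisense RNA gene asRNA:CR43609 covers 79.4% of the Ir21a exon bases on the other strand.

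Ir75d, a receptor for pyrrolidine, was close to level, with 234, 244 and 227 normalized counts in tumour-bearing samples and 243, 226 and 251 in control samples (-0.03, SE 0.17, edgeR adjusted p = 0.896). This row had the same raw counts as the row CG14077, now named COX6AL2, and 90.7% of the Ir75d exon bases lie in an exon of that gene on the same strand, so the receptor was not measured on its own. On total counts the value was 0.89, near the shift of the median gene.

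Divergent ionotropic receptors, most of them taste receptors, moved both ways. Ir48b had raw counts of 28, 25 and 25 in tumour-bearing samples, against 2, 0 and 2 in control samples (3.43 on the log2 scale, SE 0.71, edgeR adjusted p = 0.00974). Ir56d, a taste receptor for fatty acids and carbonation, had 0, 0 and 0 raw counts in tumour-bearing samples, against 18, 20 and 12 in control samples. It was the only tested member at 0 in a whole group, and was at least 28.8-fold lower in tumour-bearing samples when these are set to 3 counts over the group, which covers counting error only (edgeR adjusted p = 0.00697). Both calls held under every alternative that could fit them.

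Ir56b, a salt taste receptor in the same cluster as Ir56d, did not follow it in every library. It had raw counts of 5, 0 and 389 in tumour-bearing samples, against 208, 175 and 399 in control samples. Replicates 1 and 2 of the tumour-bearing group were far below the control samples and replicate 3 was among them, so that the difference did not pass (-1.75, SE 1.77, edgeR adjusted p = 0.443). Without tumour-bearing replicate 3 the value was -7.39 with an adjusted p of 0.00793, and with both replicates numbered 3 left out, a setting chosen after the data were seen, it was -7.19 with an adjusted p of 0.000803. Ir62a, the other abundant member, had 334, 366 and 267 normalized counts in tumour-bearing samples and 158, 266 and 135 in control samples (0.79, SE 0.31, edgeR adjusted p = 0.0806), and passed without control replicate 2 (adjusted p = 0.0189).

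The remaining tested Ir genes, namely Ir7f, Ir7g, Ir10a, Ir51b, Ir87a and Ir94c, did not pass. Ir87a came closest, with 21.8, 37.7 and 33.3 in tumour-bearing samples and 75.3, 115 and 36.7 in control samples (-1.29, SE 0.50, edgeR adjusted p = 0.0782). Below the filter, the acid receptor Ir75a had raw counts of 0, 0 and 2 in tumour-bearing samples, against 12, 7 and 24 in control samples, 37.1-fold lower as a ratio of scaled counts (95% counting interval 9.67 to 316).

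Sugar receptors gave most of the calls among gustatory receptors. Of the 9 sugar receptor genes, all in the table, 6 were tested, and 3 of these were lower and 0 higher. Among all genes tested 23% were lower and 23.8% higher. The 3 lower rows had at most 3 raw counts in any tumour-bearing sample. They thus passed the low-count filter through the control group alone, and their number shows no shift of the sugar receptors. Gr64a, a receptor for several sugars, had raw counts of 0, 0 and 1 in tumour-bearing samples, against 12, 22 and 50 in control samples (-6.55 on the log2 scale, SE 0.99, edgeR adjusted p = 0.00311). As a ratio of scaled counts it was 145-fold lower (95% counting interval 25.3 to 5793), and the tumour-bearing value rests on 1 count in replicate 3, without which the log2 fold change was -8.09. Gr64b and Gr64c both had raw counts of 2, 3 and 0 in tumour-bearing samples, against 11, 15 and 28 in control samples (-4.03, SE 0.83, edgeR adjusted p = 0.00961).

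The counts of Gr64b and Gr64c were the same in all samples and their annotated exons are shared, so the 3 lower rows stand for 2 measurements. Without tumour-bearing replicate 2 their value was -4.81. Gr64d and Gr64e, which share nearly all exon bases, were below the filter, with raw counts of 3, 4 and 4 for Gr64d in tumour-bearing samples, against 10, 7 and 29 in control samples. At the end of the cluster (3L:4026769-4037575), Gr64f had 10, 11 and 10 in tumour-bearing samples and 6, 3 and 10 in control samples. Thus Gr64a to Gr64e were lower in raw counts in each tumour-bearing sample than in any control sample, and Gr64f was not.

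Outside that cluster, sugar receptors did not pass. Gr43a, a fructose receptor that is also found in internal neurons, was the most counted gustatory receptor not past the test, with 175, 175 and 229.5 normalized counts in tumour-bearing samples and 132, 212 and 170.5 in control samples (0.17, SE 0.26, edgeR adjusted p = 0.620). Gr5a, the trehalose receptor, was at 0.09 (SE 0.41), and Gr61a, a glucose receptor, at 1.21 (SE 0.57, edgeR adjusted p = 0.126). The antisense RNA gene asRNA:CR44958 covers 74.4% of the Gr5a exon bases on the other strand.

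Receptors of other modalities gave a single call. Gr94a had 58.4, 95.5 and 83.7 normalized counts in tumour-bearing samples, against 26.1, 25.6 and 5.39 in control samples (2.07, SE 0.62, edgeR adjusted p = 0.0349), and the call was lost when any tumour-bearing sample, control replicate 1 or control replicate 2 was left out (adjusted p up to 0.107). The bitter receptors Gr32a and Gr66a did not pass, with 29.6, 79 and 60.5 for Gr32a in tumour-bearing samples and 46.1, 24 and 43.2 in control samples (0.57, SE 0.48, edgeR adjusted p = 0.359). Gr63a, a subunit of the carbon dioxide receptor, had raw counts of 18, 52 and 15 in tumour-bearing samples, against 26, 4 and 350 in control samples (-2.57, SE 1.43, edgeR adjusted p = 0.184). Its high value was in control replicate 3 alone, and without that library the log2 fold change was 0.0034. Gr28b, which has forms for light and warmth, was at -0.22 (SE 0.53), and Gr59f, Gr77a and Gr8a did not pass either.

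Odorant receptors had the lowest median count per gene of the 4 families. Of the 8 tested, 3 were higher and 1 lower, against 23.8% and 23% of all genes tested. The 3 higher genes had at most 5 raw counts in any control sample. They thus passed the low-count filter through the tumour-bearing group alone, and their number shows no shift of the family. Or1a, a receptor of larval olfactory neurons, had raw counts of 30, 17 and 32 in tumour-bearing samples, against 0, 0 and 2 in control samples (4.37 on the log2 scale, SE 0.89, edgeR adjusted p = 0.00892), 22.9-fold higher as a ratio of scaled counts (95% counting interval 6.13 to 192). Or22b, known from adult antennal neurons that also make Or22a, had 16, 13 and 18 in tumour-bearing samples and 0, 1 and 2 in control samples (3.10, SE 0.73, edgeR adjusted p = 0.0148), 9.08-fold higher as such a ratio (95% counting interval 2.92 to 45.6). Its neighbour Or22a was below the filter and had 9, 7 and 17 in tumour-bearing samples and 0, 3 and 2 in control samples. Or71a, a receptor of the maxillary palp, had 49, 57 and 18 in tumour-bearing samples and 0, 5 and 4 in control samples (3.0, SE 0.95, edgeR adjusted p = 0.0425). The Or22b call was lost without tumour-bearing replicate 2 (adjusted p = 0.0505), and that of Or71a without any library except tumour-bearing replicate 3 (adjusted p up to 0.131), while that of Or1a held throughout. Without control replicate 3 the values of Or1a and Or22b were 7.39 and 3.77, and without control replicate 2 that of Or71a was 3.73.

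Or83a was the only odorant receptor lower at the threshold, and the row is uncertain. It had raw counts of 26, 28 and 36 in tumour-bearing samples, against 87, 23 and 745 in control samples (-3.76, SE 1.15, edgeR adjusted p = 0.0396). Control replicate 3 held most of the control counts, and without it the log2 fold change was -1.85. The call was lost when any 1 of the tumour-bearing samples or control replicate 1 was left out (adjusted p up to 0.120), and on total counts (-2.99, adjusted p = 0.0636). Moreover, all Or83a exon bases lie within an exon of CG1172 on the other strand, a gene not analysed here. Control replicate 3 was also the high library for Gr85a, with 0, 4 and 0 raw counts in tumour-bearing samples and 0, 1 and 30 in control samples, and for Gr10a and Or10a, which share their exons, with 117 and 63 in that library against at most 13 in any other.

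Of the odorant receptors that did not pass, Or43b had the highest level, with 306, 329.8 and 382 normalized counts in tumour-bearing samples and 467, 379.9 and 707 in control samples (-0.61, SE 0.26, edgeR adjusted p = 0.0969). Its sign turned on total counts, at 0.28. The gene Cul1, a ubiquitin ligase scaffold, overlaps 40.7% of the Or43b exon on the other strand and had 11549, 8466 and 9733 raw counts in tumour-bearing samples, against 6336, 5592 and 15997 in control samples, with control replicate 3 the highest control sample for both genes. Or2a, another larval receptor, had 31.7, 51.4 and 40.3 in tumour-bearing samples and 26.1, 9.62 and 12.9 in control samples, without overlap (1.34, SE 0.48, edgeR adjusted p = 0.0607). Or85f stood at 1.12 (SE 0.58, edgeR adjusted p = 0.157) and Or45b at 1.32 (SE 0.97). The antisense RNA gene asRNA:CR45281 covers 100% of the Or45b exon bases on the other strand, so that row may not measure Or45b alone. Or19a and Or19b, near-identical copies below the filter, had 4, 8 and 26 and 4, 10 and 37 raw counts in tumour-bearing samples, and a count only in replicate 3 of the control samples, at 1 each.

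**Figure D5:**
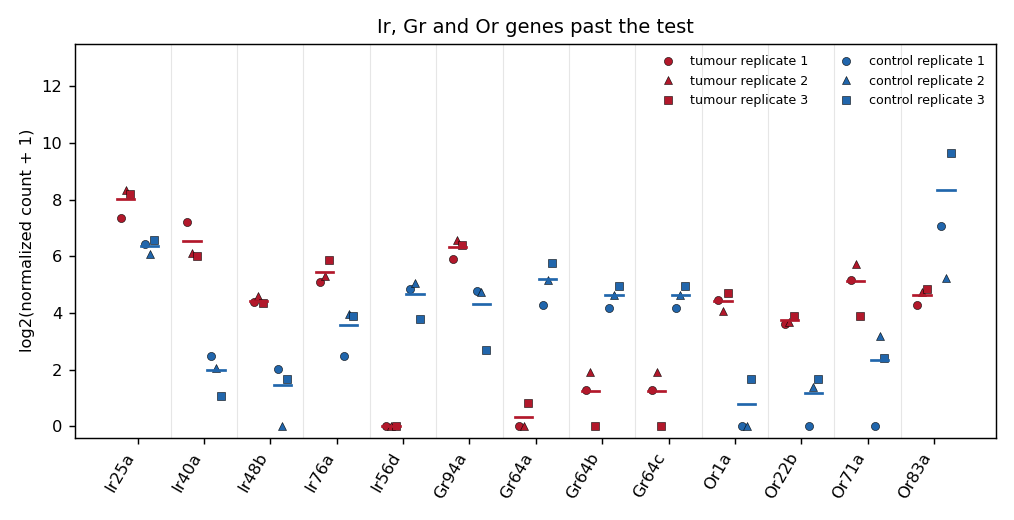
Normalized counts on a log2(value + 1) axis for the 13 Ir, Gr and Or genes past the test, with 1 symbol per library, tumour-bearing samples left of control samples, and lines at the group means. Ir25a, Ir40a, Ir48b, Ir76a, Gr94a, Or1a, Or22b and Or71a lay higher in all 3 tumour-bearing samples, Ir56d, Gr64a, Gr64b, Gr64c and Or83a lay lower, and control replicate 3 is far above the other control samples for Or83a.

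Since receptors are made by sensory neurons, the markers of such cells are given beside them. Of 11 tested neuronal genes 2 were higher (elav and Syt1) and 0 lower, and the 12 in the table summed to 10310, 12330 and 9882 normalized counts in tumour-bearing samples, against 9413, 9867 and 6362 in control samples. Among them VGlut alone had a library at 0, control replicate 1. Of 8 tested sense organ genes 0 were higher and 0 lower, and the 11 in the table summed to 681, 942 and 1497 in tumour-bearing samples, against 743, 811 and 877 in control samples. The genes acj6, ato, ase and l(1)sc had libraries at 0. Of these acj6, a regulator of olfactory receptor choice, had 11, 11 and 17 raw counts in tumour-bearing samples, against 3, 0 and 0 in control samples, and did not pass (edgeR adjusted p = 0.0762). The part of these cells in the receptor values was not tested.

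Other proteins that work with these families were examined as lists. Among Obp proteins with another name, lush, which is needed to sense a male pheromone, was higher, with 209, 96 and 153 raw counts in tumour-bearing samples, against 11, 9 and 5 in control samples (3.28 on the log2 scale, SE 0.51, edgeR adjusted p = 0.00424). Os-C was placed on the same list, but whether it encodes an odorant-binding protein was not checked. It was below the filter, with 0, 1 and 0 raw counts in tumour-bearing samples, against 2, 7 and 12 in control samples. The CD36-related proteins that serve pheromone receptors moved apart. Snmp2, known from support cells, had 11007, 8897 and 8430 raw counts in tumour-bearing samples, against 177, 166 and 452 in control samples (4.45, SE 0.30, edgeR adjusted p = 0.000559). Snmp1, known from neurons, had 370, 211 and 417 in tumour-bearing samples, against 847, 901 and 1235 in control samples (-2.39, SE 0.20, edgeR adjusted p = 0.000857). The co-receptor gene Orco was not analysed here.

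Of 5 tested Npc2 genes, which encode lipid-binding proteins, 3 were higher and 0 lower. The largest changes were those of Npc2h, with 141, 45 and 81 raw counts in tumour-bearing samples, against 1, 3 and 0 in control samples (5.07, SE 0.92, edgeR adjusted p = 0.00671), and Npc2g (2.91, SE 0.68, edgeR adjusted p = 0.0170). Of 6 tested genes known from the antenna 2 were higher and 1 lower, led by Cyp6a20, a cytochrome P450 tied to aggression, with 470, 437 and 715 raw counts in tumour-bearing samples, against 2, 4 and 1 in control samples (6.97, SE 0.58, edgeR adjusted p = 0.000839). The antennal dehydrogenase antdh was 6.20 higher (SE 0.61, edgeR adjusted p = 0.00125), while the carboxylesterase Est-6 was lower (-3.18, SE 0.77, edgeR adjusted p = 0.0180). In the CheA and CheB list, contact chemosensory proteins, the 1 tested gene did not pass.

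Channels of sensory neurons outside the receptor families moved in both directions. Of 14 tested ppk genes, sodium channels of touch, pain and pheromone neurons, 5 were higher and 2 lower. The largest increases were ppk29 (1.69, SE 0.35, edgeR adjusted p = 0.0104) and CG32792, also named ppk8 (1.64, SE 0.27, edgeR adjusted p = 0.00494), and the decreases CG31105, also named ppk22 (-2.47, SE 0.63, edgeR adjusted p = 0.0206), and CG13278, also named ppk17 (-1.61, SE 0.30, edgeR adjusted p = 0.00767). Of 11 tested rows of TRP channel genes 1 was higher, wtrw (3.24, SE 0.14, edgeR adjusted p = 0.000267), and 1 lower, pyx (-1.16, SE 0.21, edgeR adjusted p = 0.00703). The locus trpml::CG42638 stands among them under separate identifiers with nearly the same counts, and neither row passed. Among the 9 tested ionotropic glutamate receptors, from which the Ir family descends, 1 was higher and 5 lower. Nmdar1 was the gene that was higher (1.27, SE 0.40, edgeR adjusted p = 0.0425), and the muscle receptor subunits GluRIIB (-2.18, SE 0.28, edgeR adjusted p = 0.00246) and GluRIIA (-2.02, SE 0.12, edgeR adjusted p = 0.000414) were the largest decreases. Over these 8 lists 14 of 49 tested rows were higher and 10 lower, against 23.8% and 23% of all genes tested.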

How the data were processed

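RNA of 3 tumour-bearing and 3 control samples was compared, with groups and replicate numbers taken from the sample labels. Per the submitters' notes, reads passed through bcl2fastq and FastQC, TopHat with Bowtie, HTSeq and DESeq2 on the BDGP6 build, and versions and counting settings are not given in the sources used here. A single table of 11621 genes holds the raw counts the authors deposited for each sample, and these were used throughout. It also holds the authors' normalized signal, equal to the counts times 1 constant per sample and used only to check the columns, and fold changes and p-values of the authors' own comparison, which were not used. There were 0 columns of per-sample values without a sample. The member families, gene lists and tests were chosen with earlier results of these data known, although the rule for membership uses only gene symbols.

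Counts were analysed with edgeR 4.0.16 in R 4.3.3, using filterByExpr, TMM scaling and the quasi-likelihood test with robust fitting, and p-values were adjusted by the Benjamini-Hochberg method over 10074 genes. To obtain the SE of a log2 fold change, the coefficient was divided by the root of the F statistic. Floors of 3 counts over a group and exact 95% intervals for ratios of summed counts cover counting error only. Gene positions and exon overlaps came from the Ensembl annotation of BDGP6, where 11181 of the 11621 identifiers and 125 of the 126 members were found, all but Gr2a. TruSeq v2 libraries do not mark strand, so strand cannot assign reads where genes overlap. In all, 14 members have at least 90% of their exon bases within an exon of another gene on either strand. Where this gene is on the other strand, only for Obp47b is it in the table. Obp47b had 0, 1 and 3 raw counts in tumour-bearing samples, and the covering gene CG7741 had 1535, 1121 and 1268. Whether reads of an overlapping gene entered the other member rows was not tested. Named genes are all members past the test, the 3 most abundant tested members per family that did not pass, members at 0 in a whole group, and the 2 largest changes in each direction in the other chemosensory lists. Other members are named as values chosen after the data were seen. The procedure was tested on simulated counts. There 6 of 84 genes with a true 2-fold change were called, 58 of 87 with a 4-fold change, and 1 of 9993 unchanged genes. A member that did not pass may therefore still differ between the groups. Alternatives were other scalings, DESeq2 1.42.0, other filters and thresholds, exclusion of the 20 most abundant genes, exclusion of each sample, and the replicate number as a block. Leaving out both replicates numbered 3, and leaving out members with such an overlap or with counts equal to those of another gene, were added after the data were seen. The genes Orco and Gr21a were not analysed here.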

Additional observations from a re-analysis of the deposited data

How the results depend on the processing

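Of the 33 named members with a fold change and Ir56d, direction and side of the threshold were kept in 428 refits, while 36 refits lost the call, 14 gained it and 11 turned the sign. On total counts the median gene moved to 0.94, and 30 members were higher (Obp 8, Ir 12, Gr 5, Or 5) with 0 Or lower, among 6189 genes higher and 695 lower and 29 and 4 genes of the other chemosensory lists. Under a minimum of 10 counts in each of the 6 samples, where fewer genes were tested, 5 members were higher (Obp 2, Gr 0, Or 0) and 4 lower (Ir 0, Gr 0). With no filter 14 were lower (Ir 2, Gr 6, Or 2). DESeq2 gave 20 higher (Ir 7, Gr 2, Or 6) and 18 lower (Ir 3, Gr 7, Or 4). At a threshold of 0.01, 6 were higher (Obp 2, Gr 0, Or 1) with 0 Or lower, among 1317 genes higher and 1197 lower and 9 other chemosensory genes higher, and at 0.1 Ir genes gave 7 and 2 and Or genes 2 lower. Leaving out members that overlap another gene's exon by at least 90% or have the same counts as another gene gave 1 Gr and 0 Or lower. With both replicates numbered 3 left out, Ir gave 3 lower and Or 0 lower.

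Leaving out each sample in turn gave 6 to 13 members higher and 8 to 14 lower, with 2 to 5 and 4 for Obp, 3 to 5 and 1 to 3 for Ir, 0 to 1 and 3 to 6 for Gr, and 1 to 4 and 0 to 3 for Or, and 1675 to 2590 genes higher and 1380 to 2548 lower. The lowest count of higher members, 6, came without tumour-bearing replicate 2, which also gave the 1380, and the next, 8, without tumour-bearing replicate 3. Without control replicate 2, 14 members were lower. Signs turned for Obp99b on total counts (0.26), without control replicate 3 (0.25) and without both replicates numbered 3 (0.73), and for Obp99c without tumour-bearing replicate 1 (-0.28). Leaving out a sample moved Obp99b between -2.96 and 0.25, Obp99c between -0.28 and 1.86 and Gr63a between -3.53 and 0.0034. Ir75d turned with upper-quartile factors (0.091), on total counts (0.89), under the minimum in each sample (0.0068) and without both replicates numbered 3 (0.0088). Gr63a turned without control replicate 3 (0.0034) and without both replicates numbered 3 (0.33), and Or43b on total counts (0.28). None of these 5 members passed the main test, and the cause was not tested beyond the libraries named.

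Replicate numbers in the labels gave correlations of -0.05, 0.07 and 0.11 between the same-numbered samples' deviations. Pairs with different numbers ran from -0.13 to 0.14. With 3 samples per group, these values cannot show whether samples of the same number share a batch. With the number as a block, 11 members were higher and 8 lower, with 0 Gr higher and 0 Or lower, and not every sample correlated best with its own number.

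Detected members numbered 62 by the main threshold and 28 under the minimum in each sample (Obp 12, Ir 10, Gr 4, Or 2). With at least 20 counts in 3 samples 8 Gr and 4 Or genes were left. With at least 1 count in any sample there were 126 (35, 33, 32 and 26), a setting that every gene in the table meets. With the 20 most abundant genes left out, control shares averaged 0.0682% for Obp and 0.00197% for Ir. At the main threshold 64 members, 16 of them Obp genes, were not detected.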
